A study of Mus musculus with 8 samples.

Results

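The regions described here are 408 stretches of the mouse genome where P300 peaks were called in at least 2 of 4 CUT&RUN libraries and where no YY1 peak was called in any of 4 further libraries. They were selected on the deposited peak calls themselves. The peaks of all 8 lists on chromosomes 1 to 19 and X were merged wherever they shared at least 1 bp, which gave 23421 merged regions. Regions with a peak in both WT P300 lists but not in both Alkbh5 del-cIDR P300 lists were left out, so the choice fixes part of the difference between genotypes, and the presence of a region in a list is a description with no test. The 408 members are named below by their GRCm39 coordinates, counted from 1. The gene, repeat or other annotation at these positions was not analysed here, and neither was their sequence.

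P300, encoded by Ep300, is a lysine acetyltransferase that acts as a transcriptional coactivator. It does not read DNA letters by itself but is brought to enhancers and promoters by transcription factors, where it acetylates histones and other proteins, and its presence is widely used to find active enhancers in embryonic stem cells. The protein YY1 binds DNA directly through zinc fingers, is common at promoters and enhancers, and is known to help bring them together. CUT&RUN maps such proteins by directing a nuclease to the antibody-bound sites in intact nuclei, so that short DNA fragments around each site are released and sequenced. ALKBH5 is an enzyme that removes the N6-methyl group from adenosine in RNA.

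All 8 libraries came from E14TG2a, an established mouse embryonic stem cell line, and all were grown with LIF at 1000 U/ml, the MEK inhibitor PD0325901 at 1 µM and the GSK3 inhibitor CHIR99021 at 3 µM. Each antibody, P300 and YY1, was used on 2 libraries of WT cells and 2 libraries of cells with the genotype Alkbh5 del-cIDR. The labels do not say whether the libraries of a group came from separate cultures, nor whether the del-cIDR cells are 1 clone, so the spread between libraries may be technical. The identity of the cells could not be checked against marker genes, since no expression was measured.

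The 4 P300 lists held 1322 peaks (del-cIDR 1), 1286 peaks (del-cIDR 2), 1452 peaks (WT 1) and 2474 peaks (WT 2) on these chromosomes, and the YY1 lists held between 3519 and 15517. WT 2 thus stood apart as the longest P300 list. There were 4451 merged regions with a P300 peak, of which 2882 had no YY1 peak. Of these 2882 regions, 597 were in 2 or more P300 lists (20.7%) and 408 were members (14.2%). Repeated calls were more frequent among the 1569 P300 regions that also had a YY1 peak, where 572 were in 2 or more P300 lists (36.5%). In the merge, a YY1 peak can join P300 peaks that do not overlap each other, which favours repeated calls there. The part of this in the difference was not tested.

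The members fell into 4 classes by the lists that held them. All 4 P300 lists held 103 members (25.2%). Both del-cIDR lists and 1 WT list held 53 (13.0%), of which 28 had their WT peak in WT 2 and 25 in WT 1. Both del-cIDR lists and no WT list held 32 (7.84%). The largest class, with 220 members (53.9%), had a peak in 1 list of each genotype.

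Within that largest class, 152 members had their WT peak in the long WT 2 list and 68 had it in WT 1. Their del-cIDR peaks were divided more evenly, with 115 in del-cIDR 2 and 105 in del-cIDR 1. Libraries with equal replicate numbers shared 113 of them and libraries with different numbers shared 107. The clause on WT lists removed 189 regions, of which 115 were in both WT lists only. This last number stands beside the 32 members in both del-cIDR lists only. Both counts rest on the calls, and the lists differ in length. The part of list length in these counts was not tested.

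**Figure D1:**
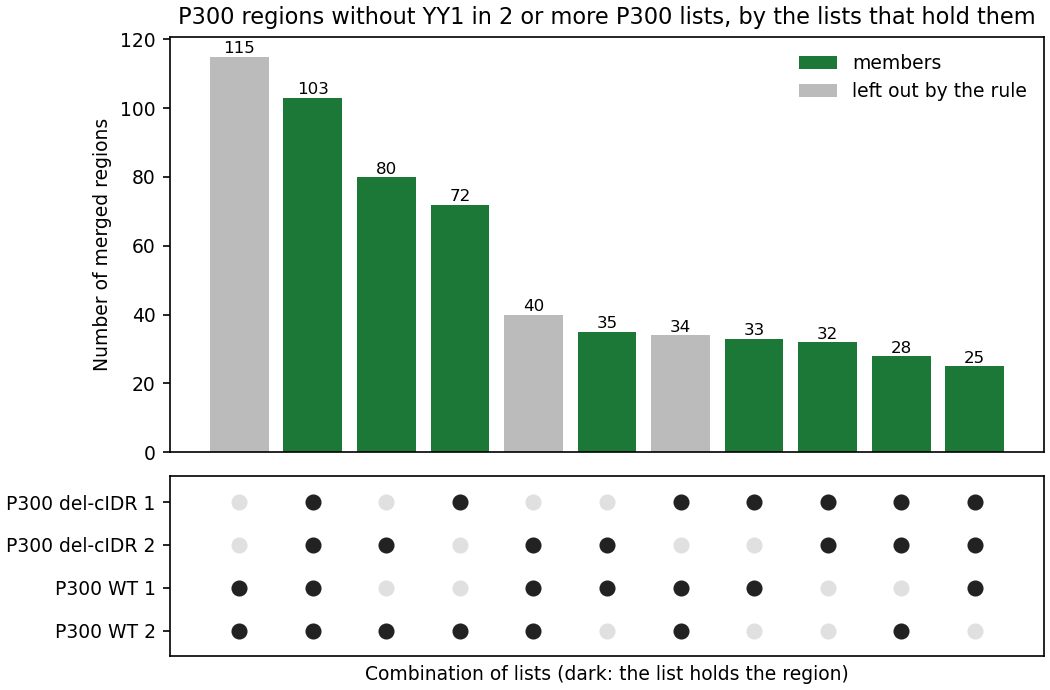
Number of P300 regions without YY1 (vertical axis) for each combination of the 4 P300 lists (dark points below each bar mark the lists that hold the region). Green bars are the members, led by the 103 regions in all 4 lists, and grey bars are the 189 regions that the rule left out, led by the 115 in both WT lists only.

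Members made up a larger share of the del-cIDR lists than of the WT lists, which the rule itself favours. They took 22.2% of the peaks of del-cIDR 1, 23.6% of del-cIDR 2, 13.6% of WT 1 and 11.5% of WT 2. Among the 100 peaks with the highest −log10 q in each list, 25, 27, 26 and 23 lay in members in the same order. Between 72 and 74 of these 100 peaks lay in P300 regions with YY1, whether held by 1 P300 list or more. P300 regions of 1 list without YY1 supplied at most 4.

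The rank of a peak is given as the percentile of its −log10 q within its own list, with 100 as the best. Since the calls rest on q, these ranks describe the members and test nothing. Members in all 4 lists had median percentiles of 81.7 in del-cIDR 1, 83.3 in del-cIDR 2, 86.5 in WT 1 and 90.5 in WT 2. Members in both del-cIDR lists and 1 WT list followed, with medians from 70.4 to 79.5. Members in 1 list of each genotype had medians from 48.9 to 60.6, and those in both del-cIDR lists only had medians of 55.03 and 48.8. The P300 regions of 1 list without YY1 ranked lowest, with medians from 27.8 to 35.0.

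**Figure D2:**
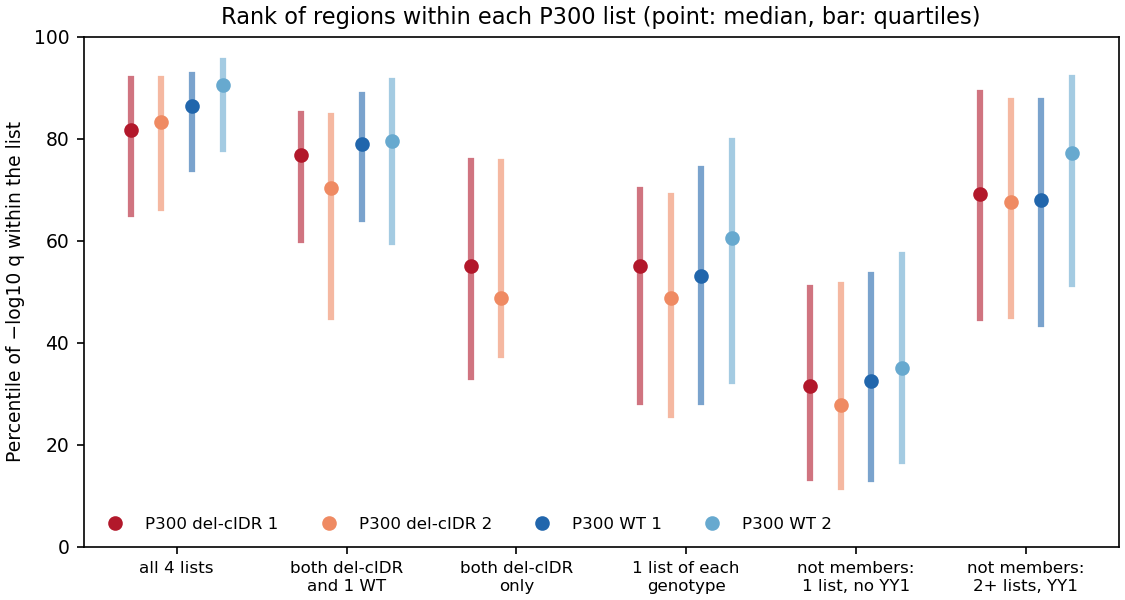
Percentile of −log10 q within each P300 list (vertical axis, 100 is the best) for the 4 classes of members and for 2 sets of other P300 regions. Points are medians over regions, bars are quartiles and colours are the 4 lists. Medians of members in all 4 lists lie between 81.7 and 90.5, and those of regions in 1 list between 27.8 and 35.0.

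The fold given by the authors is taken here as the pileup of reads at the summit over the local background, with 1 read added to each. It is therefore lower than the plain ratio of reads to background. Over the members, the median fold was 5.86 in del-cIDR 1, 5.71 in del-cIDR 2, 6.50 in WT 1 and 5.71 in WT 2. The repeated P300 regions with YY1 lay close by, with median folds between 5.63 and 5.76. The P300 regions of 1 list without YY1 had medians between 4.55 and 4.75. Members with −log10 q of at least 5 made up 59.4%, 61.7%, 70.4% and 58.7% of those held by each list in the same order. The share was 59.1% to 62.5% for repeated P300 regions with YY1 and 15.5% to 20.4% for regions of 1 list.

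Few reads stood behind most of these calls. The deposited fold and p-value of a peak together fix the number of reads at its summit, and for all 1075 member peaks the solution was a whole number within 0.05 read. The median was 15 reads, with quartiles at 12 and 20 and the lowest at 7. In 575 peaks (53.5%) the summit held 15 reads or fewer. There were 189 members in which every peak was at 15 reads or fewer, and 12 of these were in all 4 lists. Such counts carry wide counting error, so a missing call in a list is not evidence that P300 is absent there.

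At the other end, 15 members had peaks with over 100 reads, and all 15 were in all 4 lists. These 15 differed in their background. Of these, 10 lay on chromosome 9 between positions 3000845 and 3035143, and 1 each on chromosomes 4, 11, 13, 14 and 16.

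**Figure D3:**
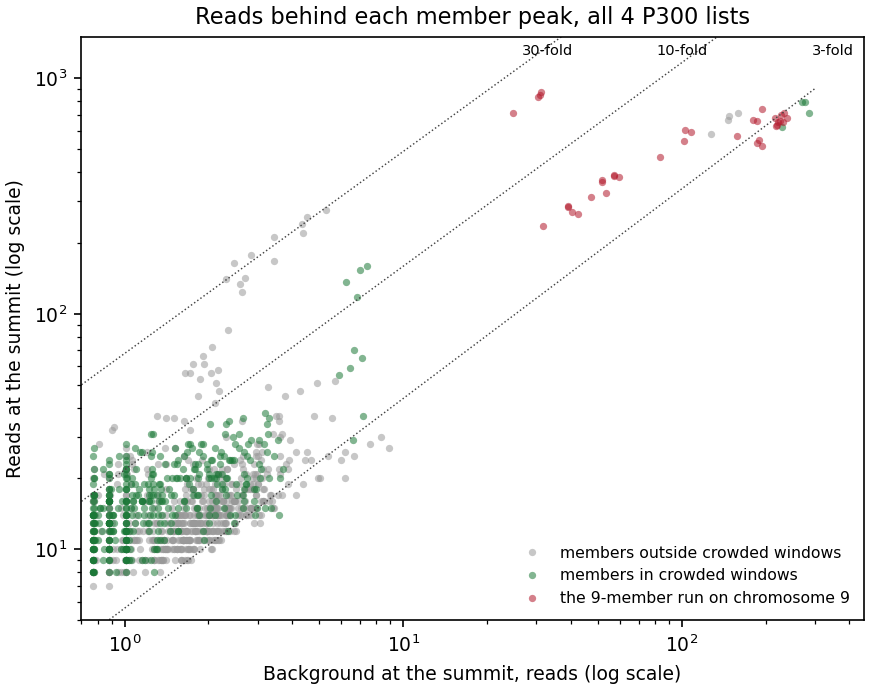
Reads at the summit (vertical axis, log scale) against the local background in reads (horizontal axis, log scale) for the 1075 member peaks of the 4 P300 lists. Dotted lines mark equal fold. Most points lie below 20 reads, the 9-member run on chromosome 9 (red) reaches 872 reads over a high background, and a small group of members outside crowded windows reaches more than 30-fold over a background of a few reads.

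Of the members with over 100 reads, 3 stood on a low background and had folds above 30 in every list. The member at chr4:70296360-70296493, 134 bp long, had 220 reads in del-cIDR 1, 276 in del-cIDR 2, 240 in WT 1 and 257 in WT 2. Its folds were 41.3, 44.1, 45.3 and 46.7 in the same order, over backgrounds of 4.36, 5.27, 4.32 and 4.53 reads. Both WT folds were above both del-cIDR folds, and del-cIDR 1 was the lowest. For this member and those below, the share of all members whose folds did not overlap between genotypes was not counted. The order of the folds at single members therefore shows no difference between genotypes. The nearest YY1 peak was 31753 bp away.

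The member at chr13:77587028-77587176 had folds of 42.6 and 47.9 in the del-cIDR lists and 46.3 and 47.5 in the WT lists, with 140, 211, 177 and 164 reads. The member at chr16:10792934-10793072 had folds of 38.5 and 37.9 in the del-cIDR lists and 34.3 and 37.5 in the WT lists, with 142, 167, 124 and 134 reads. The genotypes overlapped at the chromosome 13 member. At the chromosome 16 member both del-cIDR values lay above both WT values. The summits of the 4 lists fell within 2 bp of each other at the chromosome 13 member and within 17 bp at the chromosome 16 member.

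The other 7 of the 10 best-ranked members had large numbers of reads on a large background. The member with the best mean percentile (99.0), chr9:3015242-3015463, had 711 and 872 reads in the del-cIDR lists and 832 and 845 in the WT lists. Its folds were 27.7 and 27.1 in the del-cIDR lists and 26.4 and 26.5 in the WT lists, and its summits fell within 1 bp of each other. Both del-cIDR folds were thus slightly the higher there, although the reads overlapped. The member at chr14:3052628-3052787 had 581, 715, 663 and 690 reads but folds of only 4.55, 4.49, 4.51 and 4.65. It lay 178 bp from the nearest YY1 peak.

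The remaining 5 of these 7 belonged to the same chromosome 9 run. At chr9:3029441-3029873 the folds were 5.47 and 5.48 in the del-cIDR lists and 5.30 and 5.82 in the WT lists. At chr9:3018311-3018453 they were 6.52, 6.29, 6.65 and 6.72. At chr9:3020468-3020624 they were 3.57, 3.79, 3.54 and 3.65. At chr9:3034854-3035143 and chr9:3015942-3016147 they ranged from 6.003 to 7.08 and from 6.54 to 7.27. Among these 5, both WT folds exceeded both del-cIDR folds at chr9:3018311-3018453 and chr9:3034854-3035143, and the genotypes overlapped at the other members. These orders describe members picked by rank and were not tested.

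**Figure D4:**
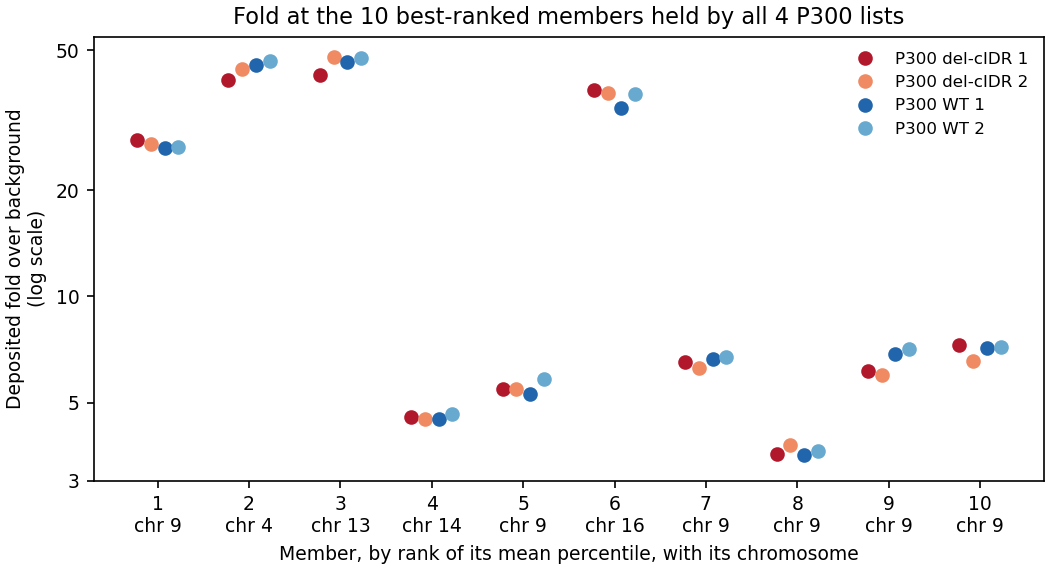
Deposited fold over background (vertical axis, log scale) in each of the 4 P300 lists for the 10 members in all 4 lists with the best mean percentile, in rank order along the horizontal axis with their chromosomes. The members on chromosomes 4, 13 and 16 lie between 34.3 and 47.9, and the 4 lists lie close together at each member.

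In all, 51 members in all 4 lists lay neither in a crowded window nor in the first part of a chromosome, as these terms are defined below. The chromosome 4, 13 and 16 members are among them. They had a median mean percentile of 72.0 and a median merged width of 249 bp. The 3 best of them after the chromosome 4, 13 and 16 members, chosen after their values were seen, were on chromosomes 5, 19 and 8. The member at chr5:115060508-115060663 had folds of 18.7 and 25.6 in the del-cIDR lists and 20.9 and 23.8 in the WT lists, with 56 to 85 reads. The member at chr19:58101874-58102031 had folds of 21.1, 23.0, 22.5 and 21.6, with 56 to 66 reads. The member at chr8:23585499-23585675 had folds of 16.2, 16.6, 18.9 and 18.6. The 2 genotypes overlapped at the first 2 of these members, and at the last both WT folds were the higher, which was not tested.

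In the class held by both del-cIDR lists and 1 WT list, the best-ranked member was chr9:3258804-3258928, with folds of 14.2 and 14.1 in the del-cIDR lists and 13.4 in WT 2. At chr6:49213394-49213539 the folds were 15.1 and 13.9, with 12.2 in WT 1. At chr2:41786154-41786286 they were 12.1 and 11.4, with 17.8 in WT 2. Next came chr17:3080056-3080193, at 9.37 and 9.87 with 8.64 in WT 2, and chr8:21137490-21137675, at 10.7 and 10.7 with 8.98 in WT 1. The WT fold was the lowest of the 3 values at 4 of these 5 members and the highest at the chromosome 2 member. These 5 were picked by rank from 53 members, and at others of the class the WT fold was also the highest. The share over the class was not counted, so the order among the 5 does not describe it. No value is known for the list without a call, because a peak list gives none.

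In the class held by both del-cIDR lists only, the best-ranked member was chr14:18434190-18434357, with folds of 9.06 in del-cIDR 1 and 11.4 in del-cIDR 2. It was followed by chr2:181654709-181654875, with folds of 7.46 and 13.9. The other named members of this class were chr14:19437236-19437415, chrX:125601687-125601849 and chr14:16214972-16215142, with folds between 6.93 and 9.06. These 32 members had medians of 13 and 13.5 reads in the del-cIDR lists, against 18 and 21 reads for the members in all 4 lists.

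In the class with 1 list of each genotype, the member at chr15:9561148-9561278 ranked best, with a fold of 16.5 in del-cIDR 1 and 10.4 in WT 1. The other 4 named members lay on chromosomes 14 and 8. They were chr14:16558393-16558566, chr8:20033075-20033244, chr8:21324858-21325004 and chr8:20061169-20061327, with folds between 7.30 and 10.6. All 5 had their del-cIDR peak in del-cIDR 1.

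Just inside the limit of 2 lists, the lowest-ranked members were chr10:62335967-62336117, chr2:118859951-118860195 and chr2:32377379-32377525, each in 1 list of each genotype. Their folds lay between 3.78 and 4.34 and their summits held 8 to 10 reads. Just outside it, the best P300 region of 1 list without YY1 was chr1:48920674-48920793, with a fold of 30.9 in WT 2 and a percentile of 97.9. The best in the other lists were chr2:93757994-93758158 (fold 12.01, del-cIDR 1), chr19:23334793-23334940 (fold 10.8, WT 1) and chr8:21136209-21136353 (fold 7.57, del-cIDR 2). Strong calls in a single list thus stood outside the members and weak calls shared by 2 lists stood inside.

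The members were short. Their merged regions had a median of 199.5 bp, from 125 to 680 bp, with class medians of 181.5 bp in both del-cIDR lists only, 189 bp in 1 list of each genotype, 203 bp in both del-cIDR lists and 1 WT list, and 216 bp in all 4 lists. P300 regions of 1 list without YY1 had a median of 148 bp and repeated P300 regions with YY1 a median of 418 bp, where the merged region includes the YY1 peaks. The widest members were chr13:66143702-66144381 (680 bp), chr5:116520902-116521483 (582 bp) and chr11:73209139-73209673 (535 bp). At the chromosome 5 member the summits of the 4 lists were up to 417 bp apart.

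Peak width was compared between the genotypes at the 103 members in all 4 lists. The rule used calls there, and width only through overlap. A wide P300 peak that reached a YY1 peak was left out with its region, so the choice is not free of width. The median width was 154 bp in del-cIDR 1 and 161 bp in del-cIDR 2, against 167 bp in WT 1 and 180 bp in WT 2. Both WT medians were thus above both del-cIDR medians. The mean of the medians was 157.5 ± 4.95 bp in del-cIDR and 173.5 ± 9.19 bp in WT (SD, n = 2), a log2 difference of -0.14. A 2-sided exact test that permuted the libraries between genotypes, with 6 arrangements, gave p = 0.33, the smallest this design allows, so the difference could not pass a threshold of 0.05.

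Counted by member, both del-cIDR peaks were narrower than both WT peaks at 34 of the 103 (33.0%), against 26.0% of all 281 P300 regions in all 4 lists, the members included, and 21.9% of the 178 of these with YY1. Both del-cIDR peaks were wider at 10 (9.71%), against 13.2% of the 281 and 15.2% of the 178. Whether these shares differ between members and regions with YY1 was not tested. WT 2, the longest list, had the widest peaks, and without it the log2 difference was -0.08. Without del-cIDR 1 it was -0.09, and outside crowded windows it was -0.29, over 52 members. With only YY1 peaks of −log10 q of at least 5 used in the rule, it was -0.22, over 134 members.

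The reads at the summits of the 103 members, not scaled for the depth of the libraries, overlapped between the genotypes. The median was 18 reads in del-cIDR 1 and 21 in del-cIDR 2, against 20 in WT 1 and 19 in WT 2, so the groups overlapped. The means of the medians were 19.5 ± 2.12 reads in del-cIDR and 19.5 ± 0.707 reads in WT (SD, n = 2), a log2 difference of -0.0038 (exact permutation p = 1.0). A scaled value, added after the data were seen, divided the reads by the lowest background of each list, which was 0.876 reads in del-cIDR 1, 1.01 in del-cIDR 2, 0.776 in WT 1 and 0.773 in WT 2. Scaled in this way, the means were 20.7 ± 0.190 and 25.2 ± 0.844 (SD, n = 2), a log2 difference of -0.28 (exact permutation p = 0.33). The lowest backgrounds alone differed by 0.28 on the log2 scale in the opposite direction, so the divisor accounts for nearly all of the scaled difference. The total of sequenced reads is not known, so which value is nearer to equal depth was not tested. At the 178 P300 regions in all 4 lists with YY1 the scaled log2 difference was -0.24, so it was not particular to the members.

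In each pair of P300 libraries, the summits lay within 50 bp of each other at 79.6% to 87.4% of the 103 members. The rule joins short peaks that share bases, so small distances were in part fixed in advance. For the 6 pairs of P300 libraries, the median distance between summits at the 103 members was 10 bp for the del-cIDR pair, 9 bp for the WT pair and 9 to 13 bp for the 4 pairs across genotypes. Distances between genotypes exceeded those within a genotype by 1.25 bp on average (10.75 against 9.5 bp), and the SD of the 6 pair medians was 1.51 bp. The sign of this difference turned with the settings, to -0.25 bp for peaks with −log10 q of at least 5 and to -3.0 bp without del-cIDR 2. The 4 summits of a member spread over a median of 23 bp. In 68 members (66.0%) they lay within 50 bp, in 23 within 10 bp, and the widest spread was 444 bp.

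The members that were strong in 1 library tended to be strong in the others. Across the 103 members, Pearson's r of log2 fold was 0.936 within del-cIDR, 0.894 within WT and 0.900 to 0.926 between genotypes. Spearman's rho was 0.885, 0.746 and 0.811 to 0.853. These values describe regions that share libraries, background and position, and they carry no test.

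The members were unevenly placed in the genome. There were 13 windows of 1 Mb in which every P300 list had at least 10 peaks, and these crowded windows held 154 of the 408 members (37.7%, Wilson 95% interval 33.2 to 42.5%, counting error only). Of the 2285 P300 regions of 1 list without YY1, 10.8% lay there, and of the repeated P300 regions with YY1, 19.4%. The windows were defined by P300 peaks, those of members included. A region in several lists adds a peak to each of them, so the definition favours repeated regions over those of 1 list. The part of this in the shares was not tested. The share was 49.5% for members in all 4 lists, 56.6% for those in both del-cIDR lists and 1 WT list, 31.3% for those in both del-cIDR lists only and 28.6% for those in 1 list of each genotype.

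Chromosome 8 held the 2 fullest windows. From 20 to 21 Mb there were 33 members, 11 of them in all 4 lists, and from 21 to 22 Mb there were 19. On chromosome 4 the windows at 146 to 147 and 147 to 148 Mb held 16 and 10 members. Chromosome 14 had 4 such windows between 15 and 20 Mb, with 5 to 12 members each. The window from 3 to 4 Mb held 11 members on chromosome 9, of which 10 were in all 4 lists, and 10 members on chromosome 11, of which 7 were. Chromosome 13 held 8 members at 66 to 67 Mb and 5 at 65 to 66 Mb, and chromosome 5 held 4 at 15 to 16 Mb.

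Members inside the crowded windows ranked higher than those outside. Their median percentiles were 82.6, 78.3, 85.7 and 88.2 in del-cIDR 1, del-cIDR 2, WT 1 and WT 2, against 56.1, 53.3, 63.7 and 65.5 for members outside. Their median folds lay between 6.90 and 7.54, against 5.07 to 5.62 outside. Background moved along with this, since its median was 1.22, 1.35, 1.23 and 1.23 reads inside and 1.68, 1.98, 1.71 and 1.81 outside. Between 21.1% and 34.4% of the member peaks inside stood on the lowest background of their list, against 8.43% to 13.4% outside. The part of the background in the higher folds was not tested.

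By chromosome, members were most frequent on chromosome 8, with 66 (16.2%, Wilson 95% interval 12.9 to 20.1%), chromosome 14, with 54 (13.2%), and chromosome 4, with 48 (11.8%). Regions of 1 list without YY1 had 7.18%, 6.74% and 9.85% on these chromosomes. Members were sparse on chromosome 1, with 7 (1.72% against 5.78%), and on chromosome 2, with 12 (2.94% against 6.26%). Of the chromosome 8 members, 52 lay in crowded windows, and of the chromosome 14 members, 38. Among the 254 members outside crowded windows, chromosome 8 held 14 (5.51%) and chromosome 14 held 16 (6.30%).

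**Figure D5:**
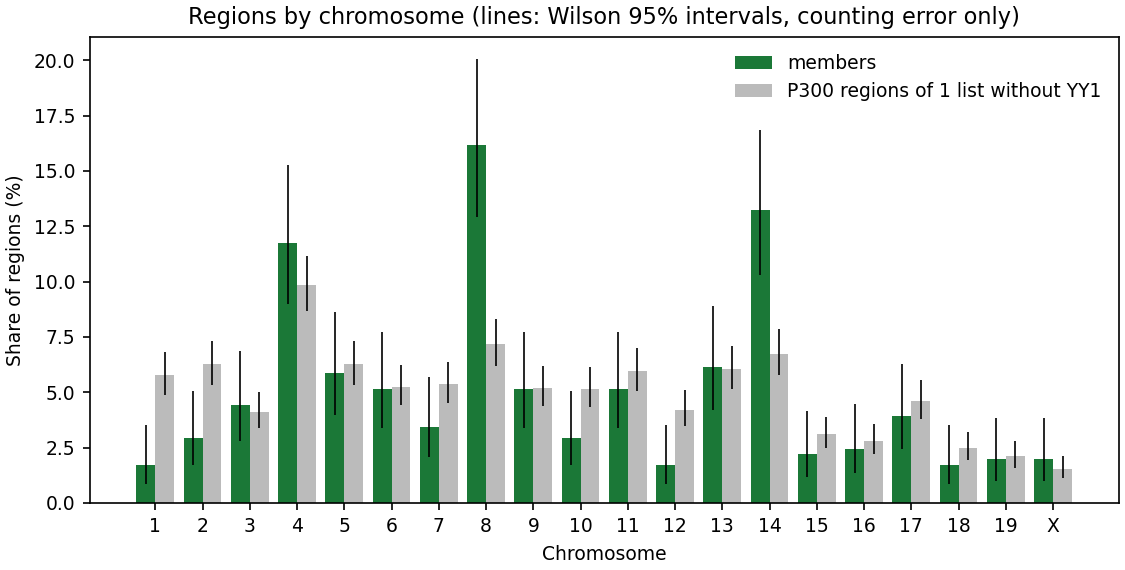
Share of regions on each chromosome (vertical axis, percent) for the 408 members (green) and the 2285 P300 regions of 1 list without YY1 (grey), with Wilson 95% intervals as lines. Chromosomes 8 and 14 stand out with 16.2% and 13.2% of the members, against 7.18% and 6.74% of the regions in 1 list.

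Members also lay close to each other. Runs in which each member was less than 10 kb from the next took in 114 members (27.9%), in 37 runs, of which 19 had 3 or more members. Of the 114, 93 were in crowded windows. After the chromosome 9 run, the largest runs had 6 members each, at chr8:21117954-21137675 and chr14:19339065-19350949. A further 3 runs of 5 members each all lay on chromosome 8.

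The largest run, at chr9:3015242-3035143, had 9 members in 19902 bp, and all 9 were in all 4 lists. Beside the 6 already described, it held chr9:3022079-3022222, chr9:3022461-3022597 and chr9:3025002-3025154, whose folds lay between 2.66 and 3.11. The median reads over the 9 members were 516 in del-cIDR 1, 654 in del-cIDR 2, 636 in WT 1 and 628 in WT 2, and the median backgrounds were 83.8, 108, 102 and 103 reads. In each library these medians were far above the medians of 14 to 16 reads over all members. The members at chr14:3052628-3052787 and, outside the run, chr9:3000845-3001048 (622 to 792 reads, folds of 2.48 to 2.92) had similar or higher numbers of reads. Peaks of YY1 were 333 to 7583 bp from these 9 members.

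That run lay in the first part of its chromosome, taken here as the bases before 3.2 Mb, a limit added after the data were seen. Of the 408 members, 25 (6.13%) started before this limit, on 7 chromosomes, and 18 of them were in all 4 lists. Most of the 25 lay on chromosomes 9 and 11, and chromosomes 3, 4, 13, 14 and 17 held 1 each. Among regions of 1 list without YY1, 22 of 2285 did (0.963%), and among repeated P300 regions with YY1, 30 of 572 did (5.24%). The share of members was thus close to that of the repeated regions with YY1. On chromosome 11 there were 10 such members between positions 3050438 and 3117256, led by chr11:3053916-3054086 with folds of 19.1, 19.2, 15.2 and 19.3 and 118 to 160 reads. Outside both the crowded windows and these chromosome starts, 249 members remained.

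Although no YY1 peak overlapped a member, many were close to one. The median distance to the nearest YY1 peak of any list was 9264.5 bp, from 28 to 535107 bp. There were 78 members (19.1%, Wilson 95% interval 15.6 to 23.2%) within 1 kb, near the 19.9% of P300 regions of 1 list. Within 10 kb there were 212 (52.0%, 47.1 to 56.8%), against 40.7% (38.7 to 42.7%). The distances moved with the crowded windows, because members had a median of 6451 bp inside and 13930 bp outside, and regions of 1 list had 6842.5 and 18417 bp.

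The nearest were chr19:6328283-6328476 (28 bp), chr5:120991275-120991583 (34 bp) and chr17:10651634-10651849 (35 bp). The chromosome 17 member was in all 4 lists, with folds from 5.10 to 6.80. With a further gap of 1 kb required between a member and any YY1 peak, 330 members were left. Having no YY1 peak also depended on how many YY1 peaks were called. Of the 1169 repeated P300 regions, 597 had a YY1 peak in no list, 203 in 1 list, 113 in 2, 114 in 3 and 142 in all 4.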

How the data were processed

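Peak lists of 8 CUT&RUN libraries (4 P300, 4 YY1) were used, 1 list per library. Per the submitters' processing notes, the GRCm39 build and the tools MACS2, BWA, fastp, Picard, SAMtools and featureCounts were used, with no versions given. The use of a control library was not given in the sources. Each deposited list gives a score, a fold over background (a ratio), −log10 of the p-value, −log10 of the q-value and the summit position of each peak, as the authors' peak caller wrote them. The deposited score equalled 10 times the −log10 q without its decimals in at least 99.79% of the peaks of each list. The lowest −log10 q was 1.30, and the total of sequenced reads per library is not known from the lists.

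From these values the peaks were merged by shared bases and the members chosen by the rule in the report. The members and lists were chosen with earlier results of these data known. Summit reads were solved from the fold and the −log10 p with a Poisson model, taking the fold with 1 read added to reads and background. The procedure was tested on simulated data. Genotypes were compared by a 2-sided exact permutation test over libraries, and intervals are Wilson 95% intervals, which cover counting error only. Regions were named by rank of mean percentile (10 in all 4 lists, 5 in each other class), width, distance to YY1, the largest run and the lowest ranks (3 each). Alternatives were q thresholds, overlaps, gaps, equal list lengths, omitted libraries, omitted windows and a replicate block. Sequence and gene annotation were planned but not run, because no GRCm39 genome was used here. Peaks on chromosome Y, the mitochondrial genome, unplaced scaffolds and a sequence named dm were kept out of the members. Python 3.11.15 was used with pandas 2.3.3, numpy 2.4.6, SciPy 1.17.1 and Matplotlib 3.10.9.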

Additional observations from a re-analysis of the deposited data

Results flagged for a closer look

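On sequences outside chromosomes 1 to 19 and X, the same rule found P300 regions without YY1 that were repeated between libraries. On chromosome Y there were 6 of 28 P300 regions (21.4%), of which 2 were in all 4 P300 lists. On unplaced scaffolds there were 29 of 117 (24.8%), of which 21 were in all 4 P300 lists. On chromosomes 1 to 19 and X the members were 408 of 4451 P300 regions (9.17%). No control sample was at hand for these counts, and the difference between the shares was not tested. Groups of 2 libraries were too small to test single libraries against their group.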

How the results depend on the processing

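The number of members (408) was 207 with P300 peaks of −log10 q of at least 5 and 254 without the crowded windows. Leaving out 1 library at a time gave 295 to 475, the lowest without P300 del-cIDR 2 and the highest without YY1 del-cIDR 2. The share of members in crowded windows (37.7%) was 47.2% at −log10 q of at least 3, 59.9% at 5 and 31.7% with the clause on WT lists not applied. It was 43.4% with windows of at least 5 peaks and 21.8% with windows of at least 20, and 34.1 to 44.9% with 1 library left out. The difference in summit distance (1.25 bp) was -0.25 bp at −log10 q of at least 5 and 4.88 bp without crowded windows. With 1 library left out it ranged from -3.0 to 1.5 bp, and it turned negative without P300 del-cIDR 2. The cause of these shifts was not tested. The log2 width difference stayed negative under all 21 alternatives, from -0.21 to -0.08 with 1 library left out. The setting without the clause and both block pairings could not alter this value, so their sign was fixed in advance. The log2 difference of reads over the lowest background was -0.32 to -0.18 with 1 library left out, but -0.0038 with the reads not divided, and its sign under other settings is largely set by the divisor, which is the same in each. With the replicate block the width difference was -0.14 with an exact permutation p of 0.5, the smallest that 4 sign assignments allow. Across the 103 members in all 4 lists, the log2 width differences between replicates 1 and 2 of each genotype correlated at -0.16. Neither the replicate block nor the crossed pairing, added after seeing the data, gave a call (0 each). Summits of 15 reads or fewer limit what a missing call can show.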
